A study of Mus musculus with 17 samples.

Results

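The genes described here are 10 genes of the cap mesenchyme, the layer of nephron progenitors that surrounds each tip of the branching ureteric bud in the embryonic kidney. They were taken from a table of 24432 gene IDs by symbol, and all 10 (Cited1, Cited2, Meox1, Meox2, Uncx, Osr1, Sall1, Crym, Spock2 and Dpf3) matched 1 ID each and reached 1 FPKM (fragments per length of transcript and depth of library) in all 17 libraries. RNA came from dissected mouse kidneys of mixed strain at E12.5. In 5 libraries (genotype Ctnnb1-delta3 c/+;Foxd1, here Foxd1-Cre) an activated allele of beta-catenin was switched on by Cre in the stromal lineage, and in 3 libraries (Ctnnb1-delta3 c/+;Six2, here Six2-Cre) by Cre in the nephron progenitor lineage. The other 9 libraries were wild type, and no library with Cre alone or with the inactive allele alone was used here. The labels do not say how each Cre was inserted, nor whether a library held 1 kidney or several, so p-values measure the spread between libraries.

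Self-renewing progenitors of the cap carry Six2 and Cited1, receive Wnt signals from the bud, and lose Cited1 as they commit to form epithelium. Beta-catenin is the effector of canonical Wnt signalling and takes part both in progenitor renewal and in the start of differentiation. Stromal cells, marked by Foxd1, lie around the cap and send signals to it. In whole-kidney RNA, fewer cells of a type and less RNA per cell cannot be told apart.

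The 17 libraries fell into 2 library sets by the number of genes listed at 0. All 5 Foxd1-Cre libraries and wild types 1 to 6 were in set 1 (5312 to 5807 genes at 0). All 3 Six2-Cre libraries and wild types 7 to 9 were in set 2 (7590 to 7891 genes at 0). The smallest step between values corresponded to about 28800000 to 37500000 reads per library in set 1 and about 5320000 to 5970000 reads per library in set 2. Comparisons were made within a set. Axin2 and Notum, feedback targets of the pathway, were higher in every mutant library than in every wild type of its set, and the cap marker Six2 averaged 18.0 ± 0.266 FPKM in Six2-Cre kidneys and 80.8 ± 8.95 FPKM in wild types 7 to 9 (SD, n = 3 each).

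Of the 10 genes, 7 fell in Six2-Cre kidneys, 5 fell in Foxd1-Cre kidneys and none rose in either by limma at an adjusted p under 0.05. Cited1, Uncx and Meox1 fell in both mutants, and Dpf3 passed in neither. In Six2-Cre kidneys the deepest fall was that of Cited1, to 9.37% of its mean wild-type level, while in Foxd1-Cre kidneys it was that of Meox1, to 50.0%. Over all genes tested, 5.84% fell in Six2-Cre kidneys, 4.82% fell in Foxd1-Cre kidneys and 1.09% fell in both, while 7.93% rose in Six2-Cre and 8.45% rose in Foxd1-Cre kidneys. The median log2 change of the 10 genes was -0.999 in Six2-Cre and -0.27 in Foxd1-Cre kidneys, beside -0.01 over all genes tested in each comparison.

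**Figure D1:**
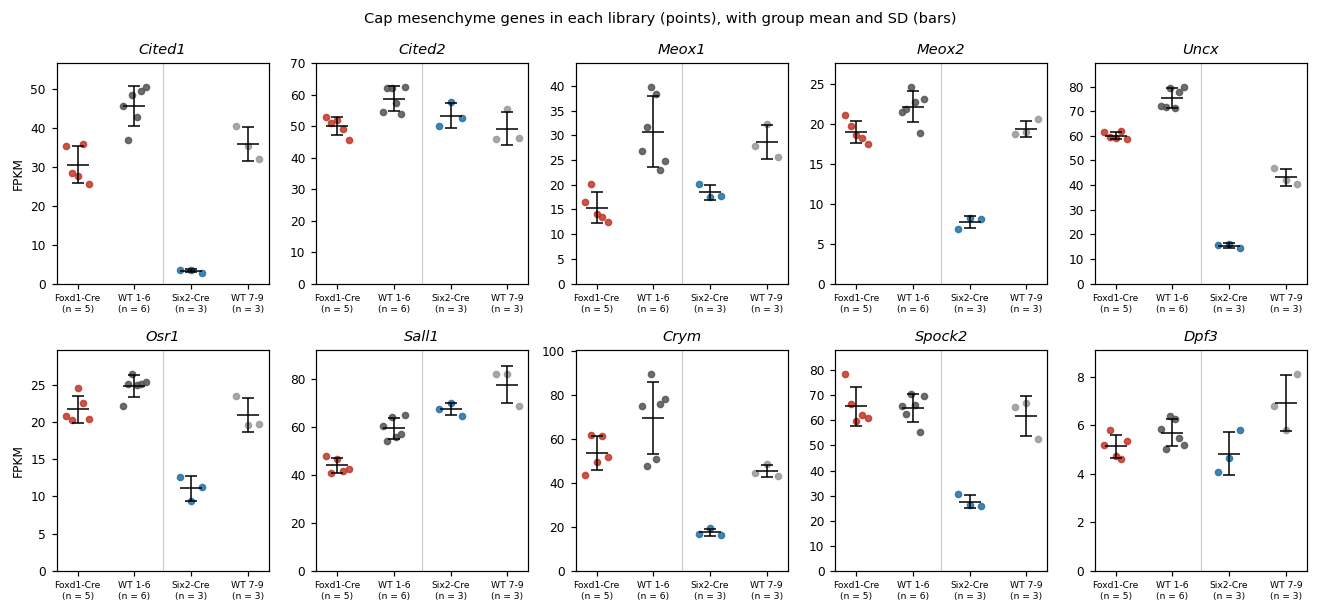
Level of each gene in FPKM (vertical axes, from 0) in the 17 libraries. Points are libraries, black bars are the group mean and SD, and the grey line parts library set 1 (left) from set 2 (right). All 3 Six2-Cre points of Cited1 lie between 2.84 and 3.64 FPKM, while those of Cited2 overlap wild types 7 to 9.

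The table of RefSeq promoters held 7 of the 10 genes and no entry for Meox1, Osr1 and Crym. Windows of 250 bases before the start are shown for Cited1 and Meox2, which fell strongly in Six2-Cre kidneys, and for Sall1, which did not pass there and fell in Foxd1-Cre kidneys. The core letters bound by TCF/LEF factors, the DNA partners of beta-catenin, were searched as CTTTGA and CTTTGT on both strands. They are in capitals below (GRCm38.p6, each on the strand of its gene, 5′ to 3′).
Cited1, chrX:102252182-102252431, minus strand: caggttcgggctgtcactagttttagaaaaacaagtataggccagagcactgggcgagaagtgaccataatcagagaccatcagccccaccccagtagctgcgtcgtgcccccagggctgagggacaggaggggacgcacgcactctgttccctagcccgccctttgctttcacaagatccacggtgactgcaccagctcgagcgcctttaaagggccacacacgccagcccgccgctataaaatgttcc
Meox2, chr12:37108290-37108539, plus strand: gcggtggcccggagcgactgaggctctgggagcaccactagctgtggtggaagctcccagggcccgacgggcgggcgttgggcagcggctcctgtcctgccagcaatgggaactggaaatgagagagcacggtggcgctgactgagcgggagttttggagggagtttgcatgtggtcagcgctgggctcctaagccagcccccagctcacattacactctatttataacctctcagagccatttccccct
Sall1, chr8:89044163-89044412, minus strand: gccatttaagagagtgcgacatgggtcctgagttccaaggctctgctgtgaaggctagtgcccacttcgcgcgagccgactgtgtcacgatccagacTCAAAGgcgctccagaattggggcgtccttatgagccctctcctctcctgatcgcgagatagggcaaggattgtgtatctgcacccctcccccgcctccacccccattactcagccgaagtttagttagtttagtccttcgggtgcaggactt
Neither core was in the windows shown for Cited1 and Meox2, and 1 was in that of Sall1, where TCAAAG is CTTTGA read on the other strand, 147 bases before the start. Counting every start listed for the genes, 3 of 11 windows held a core (27.3%), beside 9075 of 32851 windows in the table (27.6%). By gene these were 3 of the 7 (42.9%), namely Sall1, Spock2 and Dpf3. Spock2, whose window is not shown, fell in Six2-Cre kidneys about as far as Meox2 (log2 change -1.13 and -1.22). Whether a core goes with a fall was not tested. Cited1 and Sall1 have 3 windows each, none of those of Cited1 and 1 of those of Sall1 with a core, and the window shown is the most upstream. These letters are a description of the windows and do not show binding.

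Cited1 and Cited2 encode related nuclear proteins that bind the coactivator CBP and do not bind DNA themselves. Cited1 (ENSMUSG00000051159, GRCm38 chromosome X, 102247381 to 102252181) marks the uncommitted cap. It was at 3.64, 3.63 and 2.84 FPKM in Six2-Cre kidneys, against 40.5, 35.4 and 32.0 FPKM in wild types 7 to 9. Every Six2-Cre library lay far below every wild type, and the log2 change was -3.08 ± 0.12 (SE, limma, adjusted p = 1.47e-04). By the length of the longest transcript these values stood for about 18 to 23 reads per Six2-Cre library and 187 to 264 reads per wild type. In Foxd1-Cre kidneys Cited1 was at 35.5, 28.6, 27.7, 36.0 and 25.6 FPKM, against a lowest of 36.9, a median of 47.1 and a highest of 50.7 FPKM in wild types 1 to 6. The groups did not overlap, though the highest Foxd1-Cre library came close to the lowest wild type, and the log2 change was -0.57 ± 0.10 (adjusted p = 0.00337).

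Cited2 (ENSMUSG00000039910, chromosome 10, 17723218 to 17725674) is expressed in many tissues and limits the response to hypoxia by competing for CBP. In Six2-Cre kidneys it was at 50.1, 57.6 and 52.5 FPKM, against 46.0, 55.4 and 46.4 FPKM in wild types 7 to 9, and the groups overlapped (0.12 ± 0.09, adjusted p = 0.447). In Foxd1-Cre kidneys it was at 52.8, 50.9, 52.1, 49.0 and 45.5 FPKM, against a lowest of 53.8, a median of 59.8 and a highest of 62.5 FPKM in wild types 1 to 6. All 5 Foxd1-Cre libraries lay below all 6 wild types, by a small margin (-0.23 ± 0.05, adjusted p = 0.0151). That call ended with each library rescaled to the same total FPKM (adjusted p = 0.111) and with all 9 wild types as controls (0.295).

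Meox1, Meox2 and Uncx are homeobox transcription factors known best from the somites of the trunk. Meox1 (ENSMUSG00000001493, chromosome 11, 101877510 to 101894374) acts in somite and muscle formation. In Foxd1-Cre kidneys it was at 16.5, 20.2, 14.2, 13.6 and 12.4 FPKM, against a lowest of 23.0, a median of 29.2 and a highest of 39.8 FPKM in wild types 1 to 6. No Foxd1-Cre library reached the lowest wild type, and the log2 change of -0.95 ± 0.16 was the largest fall among the 10 genes there (adjusted p = 0.00200). In Six2-Cre kidneys Meox1 was at 20.2, 17.4 and 17.6 FPKM, against 27.9, 32.4 and 25.7 FPKM in wild types 7 to 9. These groups did not overlap either (-0.61 ± 0.10, adjusted p = 0.0136), but the call ended without Six2-Cre replicate 2 (0.0526) or 3 (0.0554).

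Meox2 (ENSMUSG00000036144, chromosome 12, 37108540 to 37179534), a relative of Meox1 that also acts in limb muscle and vessels, was at 6.87, 8.23 and 8.13 FPKM in Six2-Cre kidneys, against 18.7, 18.9 and 20.6 FPKM in wild types 7 to 9. The Six2-Cre libraries were close to one another and all far below the wild types (-1.22 ± 0.08, adjusted p = 9.66e-04). In Foxd1-Cre kidneys Meox2 was at 21.1, 19.7, 18.6, 18.2 and 17.5 FPKM, against a lowest of 18.9, a median of 22.3 and a highest of 24.6 FPKM in wild types 1 to 6. The groups overlapped and the log2 change of -0.21 ± 0.07 did not pass (adjusted p = 0.0598). It passed without Foxd1-Cre replicate 1 (0.0352), without wild-type replicate 5 (0.00952) and with libraries rescaled by the median of ratios (0.0485).

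Uncx (ENSMUSG00000029546, chromosome 5, 139543494 to 139548179) patterns the somites and is also made in the cap. It was at 15.6, 16.2 and 14.4 FPKM in Six2-Cre kidneys, against 47.1, 42.1 and 40.3 FPKM in wild types 7 to 9. The fall left 35.7% of the wild-type mean and the groups lay far apart (-1.43 ± 0.08, adjusted p = 4.41e-04). In Foxd1-Cre kidneys Uncx was at 61.7, 59.5, 59.0, 61.9 and 58.5 FPKM, against a lowest of 71.3, a median of 74.8 and a highest of 79.9 FPKM in wild types 1 to 6. The 5 Foxd1-Cre libraries were the tightest of any gene here (coefficient of variation 2.58%), and all lay below the wild types (-0.32 ± 0.04, adjusted p = 1.47e-04). With all 9 wild types as controls this change was -0.06 (adjusted p = 0.835). Wild types 7 to 9 averaged 43.2 ± 3.48 FPKM (SD, n = 3) and wild types 1 to 6 averaged 75.3 ± 4.13 FPKM (SD, n = 6).

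Osr1 and Sall1 encode zinc finger transcription factors. Osr1 (ENSMUSG00000048387, chromosome 12, 9570116 to 9581500) marks the intermediate mesoderm, and kidney formation requires it. It was at 12.54, 9.32 and 11.3 FPKM in Six2-Cre kidneys, against 23.5, 19.6 and 19.7 FPKM in wild types 7 to 9. The Six2-Cre libraries were all lower, at 52.8% of the wild-type mean (-0.87 ± 0.12, adjusted p = 0.00796). In Foxd1-Cre kidneys Osr1 was at 20.7, 20.3, 24.5, 22.5 and 20.3 FPKM, against a lowest of 22.1, a median of 25.1 and a highest of 26.4 FPKM in wild types 1 to 6. The groups overlapped and the change of -0.19 ± 0.06 lay just short of the threshold (adjusted p = 0.0517). It passed without Foxd1-Cre replicate 3 (0.0143) or wild-type replicate 1 (0.0197) and with libraries rescaled by the median of ratios (0.0486).

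Sall1 (ENSMUSG00000031665, chromosome 8, 89027235 to 89044162), without which the bud fails to enter the mesenchyme, fell in Foxd1-Cre kidneys. There it was at 47.9, 40.9, 46.4, 41.8 and 42.6 FPKM, against a lowest of 54.0, a median of 58.7 and a highest of 65.1 FPKM in wild types 1 to 6. Every Foxd1-Cre library lay below every wild type (-0.43 ± 0.06, adjusted p = 4.15e-04). In Six2-Cre kidneys it was at 67.6, 69.8 and 64.6 FPKM, against 82.1, 82.1 and 68.8 FPKM in wild types 7 to 9. A single wild type overlapped the Six2-Cre libraries and the change of -0.20 ± 0.08 did not pass (adjusted p = 0.155). It passed without that library, wild-type replicate 9 (0.0266), and was 0.05 with all 9 wild types as controls (0.704).

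The remaining genes do not encode DNA-binding factors. Crym (ENSMUSG00000030905, chromosome 7, 120186380 to 120202111), which makes a cytosolic protein that binds thyroid hormone, was at 16.6, 19.5 and 16.5 FPKM in Six2-Cre kidneys, against 44.4, 48.8 and 43.2 FPKM in wild types 7 to 9. The Six2-Cre libraries were all less than the lowest wild type (-1.33 ± 0.08, adjusted p = 6.72e-04). In Foxd1-Cre kidneys Crym was at 43.9, 61.8, 49.7, 61.3 and 52.1 FPKM, against a lowest of 47.9, a median of 75.6 and a highest of 89.8 FPKM in wild types 1 to 6. Crym varied most among wild types 1 to 6 (coefficient of variation 23.9%), the groups overlapped and the change did not pass (-0.34 ± 0.17, adjusted p = 0.229).

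Spock2 (ENSMUSG00000058297, chromosome 10, 60106219 to 60135198), a proteoglycan of the extracellular matrix, was at 30.6, 26.2 and 25.9 FPKM in Six2-Cre kidneys, against 65.4, 67.1 and 52.7 FPKM in wild types 7 to 9. Those groups lay far apart (-1.13 ± 0.11, adjusted p = 0.00260). In Foxd1-Cre kidneys it was at 78.6, 66.6, 59.8, 62.1 and 60.8 FPKM, against a lowest of 55.2, a median of 66.0 and a highest of 70.7 FPKM in wild types 1 to 6. Foxd1-Cre replicate 1 lay above every wild type and wild-type replicate 5 below every Foxd1-Cre library, while the others overlapped and the means were nearly equal (0.01 ± 0.08, adjusted p = 0.961).

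Dpf3 (ENSMUSG00000021221, chromosome 12, 83213745 to 83487716), a subunit of the BAF chromatin remodelling complex, had the lowest level of the 10 genes in wild types of either set. It was at 4.09, 4.64 and 5.79 FPKM in Six2-Cre kidneys, against 6.79, 5.83 and 8.13 FPKM in wild types 7 to 9. The groups were just apart and the change did not pass (-0.44 ± 0.15, adjusted p = 0.115). In Foxd1-Cre kidneys it was at 5.17, 5.81, 4.75, 4.63 and 5.35 FPKM, against a lowest of 5.04, a median of 5.67 and a highest of 6.37 FPKM in wild types 1 to 6, with overlap and no call (-0.12 ± 0.07, adjusted p = 0.294).

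The annotation places Gm11551 opposite Meox1, Gm48617 within Meox2, 1700022H16Rik opposite Osr1 and Mir6906 within Spock2. Counting by strand is not stated, so reads of these neighbours could enter the values of those 4 genes. In 8 of the 10 genes every Six2-Cre library lay below every wild type of its set, where 17.7% of all genes did so, and in 5 of 10 every Foxd1-Cre library did, where 3.8% of all genes did so.

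**Figure D2:**
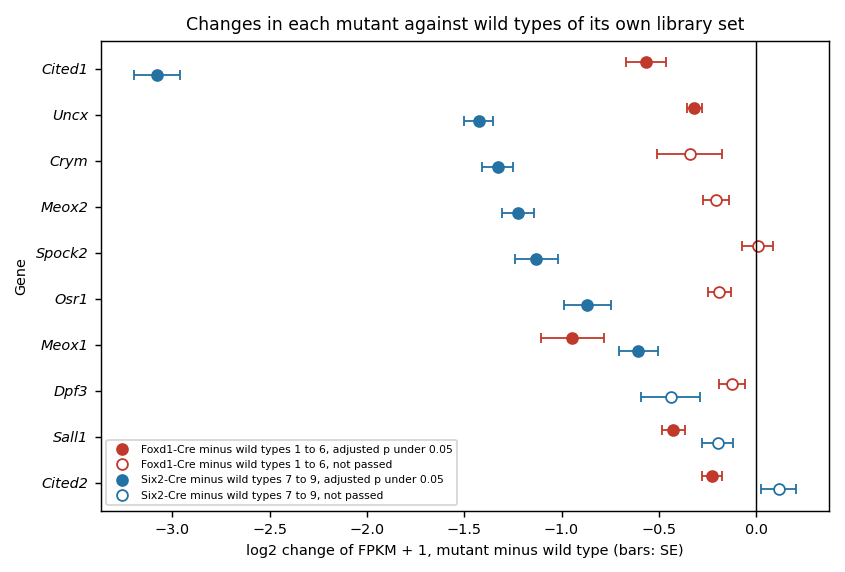
Log2 change (horizontal axis, log2 of FPKM + 1, mutant minus wild type) of each gene in Foxd1-Cre kidneys (red) and Six2-Cre kidneys (blue), with standard errors. Filled points passed at an adjusted p under 0.05. Cited1 reached -3.08 in Six2-Cre and -0.57 in Foxd1-Cre kidneys, and Meox1, Sall1 and Cited2 have their red point left of the blue one.

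Whether a gene responded differently in the mutants was tested as the Foxd1-Cre change minus the Six2-Cre change, each through its own wild types. The difference passed for 6 of the 10 genes, all with the deeper fall in Six2-Cre kidneys, where 5.76% of all genes differed in that direction and 5.24% in the other. It was 2.51 ± 0.16 for Cited1 (SE, adjusted p = 6.62e-08), 1.14 ± 0.14 for Spock2, 1.11 ± 0.08 for Uncx and 1.02 ± 0.11 for Meox2. For Crym it was 0.99 ± 0.18 and for Osr1 0.68 ± 0.14 (adjusted p = 0.0117). Meox1, Sall1 and Cited2 had the lower value in Foxd1-Cre kidneys, with differences of -0.34 ± 0.19, -0.23 ± 0.10 and -0.34 ± 0.10 that did not pass (adjusted p = 0.298, 0.174 and 0.0619). For Cited2 the difference passed without wild-type replicate 1 (0.0490), 5 (0.0464) or 8 (0.0115). Dpf3 did not pass (0.31 ± 0.17, adjusted p = 0.300). With all 9 wild types as controls of both mutants, the wild types cancel from the difference. What is left sets the mutants directly against each other across library sets. The value for Sall1 in that fit (-0.61, adjusted p = 0.00157) thus holds the difference between the sets as well.

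Levels set within a library against Six2, both per length in FPKM, do not depend on scaling between libraries. The ratio of Cited1 to Six2 averaged 0.188 ± 0.0256 in Six2-Cre kidneys and 0.445 ± 0.0225 in wild types 7 to 9 (SD, n = 3 each), without overlap. The ratio of Uncx to Six2 was 0.860 ± 0.0567 in Six2-Cre kidneys and 0.536 ± 0.0357 in those wild types, and that of Sall1 to Six2 was 3.75 ± 0.173 in Six2-Cre kidneys and 0.962 ± 0.0201 in those wild types. Cited1 was thus the 1 gene of the 10 whose ratio to Six2 was lower in Six2-Cre kidneys. Six2 itself fell there to 22.2% of its wild-type mean, so a gene that fell less than Six2 has a raised ratio. In Foxd1-Cre kidneys the ratio of Meox1 to Six2 averaged 0.171 ± 0.0322 (SD, n = 5), against 0.281 ± 0.0438 (SD, n = 6) in wild types 1 to 6. These groups overlapped, with Foxd1-Cre replicate 2 at 0.223 and wild-type replicate 6 at 0.218. The ratio of Cited1 to Six2 averaged 0.340 ± 0.0383 in Foxd1-Cre kidneys and 0.425 ± 0.072 in those wild types, also with overlap. The ratio of Uncx to Six2 averaged 0.670 ± 0.0210 in Foxd1-Cre kidneys and 0.699 ± 0.0801 in those wild types, within their spread.

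Another 18 genes of the cap mesenchyme give the context. In Six2-Cre kidneys 10 of the 18 fell, none rose and 8 did not pass, with a median log2 change of -0.41 beside -0.01 over all genes. Of all genes tested there, 5.84% fell and 7.93% rose. Six2 (-2.10 ± 0.08, adjusted p = 1.49e-04), its partner Eya1 (-1.54 ± 0.06), Rspo1 (-1.97 ± 0.11), a secreted enhancer of Wnt signalling, and the kidney regulator Pax2 (-0.88 ± 0.06) had the smallest p-values. Wt1, Robo2, Gas1, Itga8, Bmp7 and Hoxa11 fell as well. The call of Hoxa11 ended in a fit with no variance trend (adjusted p = 0.0508) and without Six2-Cre replicate 1 (adjusted p = 0.102) or 3 (0.108) or wild-type replicate 7 (0.0891) or 8 (0.0995), and those of Robo2 (0.109) and Itga8 (0.898) with all 9 wild types as controls. Gdnf, the signal from the cap to the bud, was at 22.4 ± 0.179 FPKM in Six2-Cre kidneys and 24.4 ± 2.78 FPKM in wild types 7 to 9 (SD, n = 3 each) and did not pass (adjusted p = 0.407).

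In Foxd1-Cre kidneys 4 of the 18 fell, 2 rose and 12 did not pass, with a median of -0.04 beside -0.01 over all genes. Of all genes tested there, 4.82% fell and 8.45% rose, so the 2 rises lie near the share of all genes. Gdnf (-0.47 ± 0.08, adjusted p = 0.00254), the receptor Fgfr1 (-0.21 ± 0.03), Hoxc11 (-0.35 ± 0.09) and Six2 (-0.27 ± 0.07, adjusted p = 0.0283) fell, and Tmem100 (1.09 ± 0.10) and the progenitor growth factor Fgf20 (0.27 ± 0.04) rose. The call of Six2 ended when any of 5 libraries was left out (Foxd1-Cre 2, 3 and 5, wild types 4 and 6; adjusted p from 0.0543 to 0.0776) and on rescaling to equal totals (0.112), and that of Hoxc11 without Foxd1-Cre replicate 3 (0.0579) or 4 (0.0529). Fgfr1, Hoxc11 and Six2 did not pass with all 9 wild types as controls (0.536, 0.388 and 0.460), nor Fgfr1 on rescaling to equal totals (0.0544). The annotation has other genes overlapping Eya1, Rspo1, Pax2, Robo2, Gas1, Itga8, Hoxa11, Fgfr1 and Fgf20, so their values are uncertain in the same way. Of the 18 genes, 11 differed between the mutants, all with the higher change in Foxd1-Cre kidneys. Of all genes, 5.76% differed in that direction and 5.24% in the other. For 10 of them the gene fell in Six2-Cre kidneys, and for Tmem100 it rose in Foxd1-Cre kidneys, with a change of 0.02 in Six2-Cre kidneys (adjusted p = 0.949).

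**Figure D3:**
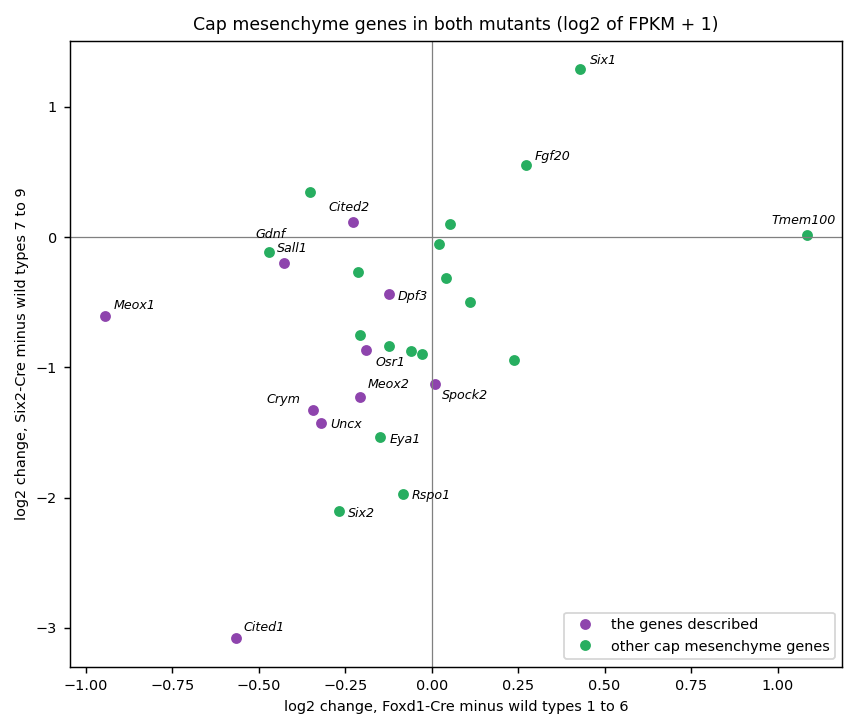
Log2 change in Foxd1-Cre kidneys (horizontal axis) against that in Six2-Cre kidneys (vertical axis), each with the same-set wild types as zero, for the 10 genes described (purple) and 18 other cap mesenchyme genes (green). Cited1 lies at -0.57 and -3.08, Meox1 lies furthest left at -0.95, and Tmem100 lies furthest right at 1.09.

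Genes with the pattern most like a given gene were ranked by Pearson correlation over the 17 libraries, after the mean of the wild types of each set was taken away. These values describe likeness only, since the libraries share groups and the group means set most of them. For Cited1 the closest were Uncx (0.995), Capn6 (0.989), Dock5 (0.988), Ctdspl (0.986) and Six2 (0.985). Within library set 1 alone (11 libraries) the same genes had 0.940, 0.790, 0.865, 0.902 and 0.718. For Uncx the closest were Cited1 (0.995), Ctdspl (0.989), Capn6 (0.989), Dock5 (0.988) and Rasef (0.988). Meox1 had other neighbours, Adamts18 (0.922), Acsf2 (0.918), Klhdc10 (0.917) and Cdkn1c (0.914). Those of Sall1 were Gdnf (0.926), Dock11 (0.920), Tmtc1 (0.916), Stc1 (0.907) and Klhdc10 (0.902), the last also on the list of Meox1.

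Markers of other cells were counted as well, and their part in the results was not tested. Over all genes tested, 7.93% rose and 5.84% fell in Six2-Cre kidneys, and 8.45% rose and 4.82% fell in Foxd1-Cre kidneys. In Six2-Cre kidneys all 8 endothelial markers rose (summed level 183 to 192 FPKM, against 87.7 to 107 FPKM in wild types 7 to 9). There 7 of 10 ureteric bud markers fell and none rose (190 to 199 FPKM, against 253 to 272 FPKM in those wild types). Of 6 erythroid markers tested 5 fell and 1 rose (2365 to 3183 FPKM, against 4921 to 6034 FPKM in those wild types). Among 12 stromal markers 3 rose and 1 fell (843 to 905 FPKM, against 768 to 805 FPKM in those wild types), and among 10 genes of committed nephron cells 4 rose and 1 fell (166 to 187 FPKM, against 148 to 170 FPKM in those wild types).

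In Foxd1-Cre kidneys 5 of 12 stromal markers fell and 1 rose (530 to 608 FPKM, against 713 to 875 FPKM in wild types 1 to 6). Of 10 committed nephron genes 5 fell and 2 rose (126 to 149 FPKM, against 122 to 164 FPKM in those wild types). Of 10 bud markers 1 rose and 1 fell, near the shares of all genes (8.45% rose and 4.82% fell). Their summed levels overlapped (242 to 301 FPKM, against 237 to 283 FPKM in those wild types). Among 8 endothelial markers 3 rose (135 to 178 FPKM, against 115 to 150 FPKM in those wild types). Among 6 erythroid markers 3 fell (1231 to 3088 FPKM, against 1963 to 3177 FPKM in those wild types). Of 5 gonad and adrenal markers, 3 of them tested, Amhr2 alone passed, averaging 14.2 ± 4.88 FPKM in Foxd1-Cre kidneys and 0.983 ± 0.621 FPKM in wild types 1 to 6 (SD, n = 5 and 6). In Six2-Cre kidneys none of that list passed (1.20 to 1.59 FPKM, against 0.510 to 1.11 FPKM in wild types 7 to 9). No marker was at 0 in every library of a comparison.

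Since Meox1, Meox2 and Uncx are also active in somites, 9 somite and muscle markers were measured. Tcf15, which rose in Six2-Cre and fell in Foxd1-Cre kidneys, made up most of their sum in all but wild-type replicate 9. That sum was 14.1 to 15.1 FPKM in Six2-Cre kidneys against 6.93 to 12.2 FPKM in wild types 7 to 9, and 8.72 to 11.9 FPKM in Foxd1-Cre kidneys against 10.9 to 13.8 FPKM in wild types 1 to 6. The other 8 were low, with highest values over the 17 libraries of 2.05 FPKM for Myog, 1.91 for Pax1, 1.22 for Myod1, 0.871 for Pax3, 0.777 for Pax9, 0.554 for Nkx3-2, 0.227 for Myf5 and 0.147 for Pax7. Myog and Pax1 were tested and passed in neither mutant. Pax3, below the filter and not tested, was named after its values were seen. It was at 0.707, 0.726 and 0.871 FPKM in Six2-Cre kidneys, against 0.329, 0.437 and 0.514 FPKM in wild types 7 to 9. The other low markers overlapped between those groups. Myog averaged 0.481 FPKM in Six2-Cre kidneys and 1.32 FPKM in wild types 7 to 9.

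Wild types of the library sets differed from each other at 65.6% of genes (25.7% higher and 39.9% lower in wild types 7 to 9), so levels were not compared across sets as a biological result. Among the 10 genes Uncx was lower (-0.79) and Sall1 higher (0.38) in wild types 7 to 9 than in wild types 1 to 6, under each scaling tried. All genes had a median of -0.11 in that comparison, which was 0.0042 after rescaling to equal totals.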

How the data were processed

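Bulk RNA-seq of 17 kidney libraries was analysed, grouped by sample title. The authors deposited 1 table of FPKM values. The tools bcl2fastq 2.17.1.14 and Salmon and the build GRCm38 are named, with no roles, per the submitters' processing notes. The gene-level summary, annotation release and any further scaling are not given in the sources used here. Read depth was read off the lowest values of genes with 1 transcript, so it is approximate.

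Symbols came from GENCODE M21 (24189 IDs matched). Genes at 1 FPKM or more in at least 3 libraries were kept (14014), less those at 0 throughout a comparison, and log2(FPKM + 1) went into limma (version 3.58.1, R 4.3.3, variance trend on), 1 fit per library set. Adjusted p-values are Benjamini-Hochberg over all genes tested, two-sided, called under 0.05. Fold changes on this scale understate those of low genes. The difference between mutants adds the squared errors of the fits, with Satterthwaite degrees of freedom. The procedure was tested on simulated data. Alternatives were another pseudocount (0.1), no filter, other scalings, no trend, pooled controls, a replicate block and leaving out each library.

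The genes, lists and library sets were chosen with earlier results of these data known. Named besides the 10 genes were cap mesenchyme genes that passed (Gdnf in Six2-Cre kidneys was named after its value was seen), the 5 most alike genes of Cited1, Uncx, Meox1 and Sall1 (1 of those of Meox1 is not reported here), and Six2, Axin2 and Notum as checks; Tcf15, Amhr2 and Pax3 were named after their values were seen. Hba-a2, listed as erythroid, was not used here.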

Additional observations from a re-analysis of the deposited data

Results flagged for a closer look

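The response differed between the mutants, by the test of the difference itself, for 6 of the 10 genes. All 6 had the deeper fall in Six2-Cre kidneys, where 5.76% of all genes differed in that direction and 5.24% in the other. The Foxd1-Cre change minus the Six2-Cre change was 2.51 for Cited1, 1.14 for Spock2, 1.11 for Uncx, 1.02 for Meox2, 0.99 for Crym and 0.68 for Osr1, and each kept its call without any 1 library.

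Osr1 in wild-type replicate 1, at 22.1 FPKM, stood below the other wild types of its set by more than Dixon's 95% limit. Chance flags about 1 in 20 groups, and 20 groups were looked at.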

How the results depend on the processing

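Of 540 values of the 10 genes under alternatives, 519 kept their direction and side of the threshold, 5 lost the call, 11 gained one and 5 changed sign. Those that changed sign had not passed: Spock2 in Foxd1-Cre kidneys (-0.058 to 0.040 over all fits without 1 library, below 0 without Foxd1-Cre replicate 1 or wild-type replicate 2 or 5) and, with all 9 wild types as controls, Cited2 (-0.052) and Sall1 (0.054) in Six2-Cre kidneys. Itga8, called within its set, was 0.036 there. Controls pooled across sets mattered most. In Foxd1-Cre kidneys 337 genes, 3 of the 10 and 1 of the other 18 then fell. In Six2-Cre kidneys 2747 genes rose, 3697 fell and 3 of the other 18 rose. For the difference of the mutants the pooled controls cancel, so that fit set the mutants directly against each other across library sets. Of 14014 genes it gave 5108 higher and 3397 lower, with 6 of the 10 higher and 1 lower. It does not separate response from library set. Its values for the 10 genes are among the 540. Rescaling to equal totals left 408 falls in Foxd1-Cre kidneys, 2 of them among the other 18 genes.

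Without any 1 library, falls in Foxd1-Cre kidneys numbered 485 to 759 over all genes (674 with all libraries), 5 to 6 of the 10 and 2 to 6 of the other 18, and rises 921 to 1236 (1182). In Six2-Cre kidneys 339 to 582 genes fell (808) and 568 to 885 rose (1097), with 6 to 8 falls among the 10, 9 to 10 falls among the other 18 and 0 to 1 rises there. Falls there numbered 422, 394 and 339 without Six2-Cre replicate 1, 2 and 3 and 389 and 385 without wild-type replicate 7 and 8, and rises 666, 626, 568, 710 and 639; the fewest falls among the other 18 in Foxd1-Cre kidneys came without Foxd1-Cre replicate 3 and the most without wild-type replicate 5. For the difference 532 to 814 genes were higher and 504 to 766 lower, with 6 and 0 to 1 of the 10. Alternatives added after the data were seen compared wild types 7 to 9 with wild types 1 to 6. Under either rescaling 2 of the 10 genes were higher and 1 lower (1 and 5 without). Over all genes, 4432 were higher and 4111 lower on rescaling to equal totals, and 4478 and 4472 by the median of ratios. Without rescaling 25.7% of all genes were higher and 39.9% lower, so such calls were common among all genes. The causes were not tested.

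Replicate numbers did not pair Foxd1-Cre with wild-type libraries: deviations of same-numbered libraries correlated at 0.0224 to 0.0993 over 5 pairs, and 0 of the 5 Foxd1-Cre libraries correlated best with its own number. With the replicate block, and without wild-type replicate 6, 929 genes rose, 497 fell, 5 of the 10 fell and 3 of the other 18 fell (not Six2, adjusted p = 0.0510, nor Hoxc11, 0.0559), and for the difference 6 of the 10 were higher. No paired analysis was possible for Six2-Cre because it shares no replicate number with wild types 7 to 9. Depth limits Cited1 in Six2-Cre kidneys most, at about 18 to 23 reads per library.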
